A study of Mus musculus with 2 samples.

Results

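Receptor-type tyrosine phosphatases are transmembrane proteins that carry large extracellular regions for adhesion or ligand binding. Many of them are enzymes that remove phosphate from tyrosine residues. The genes described here are 10 members of that family, chosen by name with earlier results of these data known. They are the type IIa genes Ptprd, Ptprf and Ptprs, the type IIb genes Ptprk, Ptprm, Ptprt and Ptpru, the type V genes Ptprg and Ptprz1, and the type VIII gene Ptprn2. Of the 8226 peaks in the deposited table, 33 carry the name of one of these genes, and they belong to 8 of the 10 genes. Ptprf and Ptprk have no peak in the table.

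The study mapped Dnmt1, the maintenance DNA methyltransferase, by DamID. In this method a protein fused to the bacterial adenine methyltransferase Dam leaves methyl marks on GATC sequences near the sites it visits. The fusion library came from 50 mouse embryos injected with Dnmt1-V5-Dam and the control library from 50 embryos injected with Dam-only, all collected between the 4- and 8-cell stages. In both groups the zygotes came from hormone-treated females of the hybrid strain BCF1, a cross of C57BL/6 and CBA/CA, at 5 weeks of age, and the strain of the males is not given in the labels. Each group is 1 library of pooled embryos holding an injected construct, so there is no replicate spread, and differences between the libraries have no test. The labelled stage cannot be checked in genomic DNA.

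The family is best known from the nervous system. Type IIa receptors (the LAR group) bind proteoglycans and synaptic adhesion proteins, and act in axon guidance and synapse formation. Type IIb receptors carry a MAM domain and bind the same receptor on the neighboring cell, next to cadherin-catenin complexes. Type V receptors have a carbonic anhydrase-like domain that binds contactins, and Ptprn2 (phogrin) sits in the membrane of dense-core secretory vesicles.

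The genes with peaks were mostly very long, and most of their peaks lay inside the gene body, which is the stretch between the start and end that the table gives for the gene. Of the 33 peaks, 24 (72.7%, exact Clopper-Pearson 95% interval 54.5 to 86.7) were inside a body and 9 were outside. Among all listed peaks the share inside a body was 43.0% (41.9 to 44.1). With a peak, the 8 of 10 genes stand beside 22.7% of all 21035 genes with a messenger RNA accession. With a peak inside the body, 5 of the 10 genes stand beside 11.7% of all genes. These genes were named with their peaks known, so the counts describe the choice and nothing is read from them. All intervals here cover counting error only, and peaks of 1 gene share their neighborhood.

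**Figure D1:**
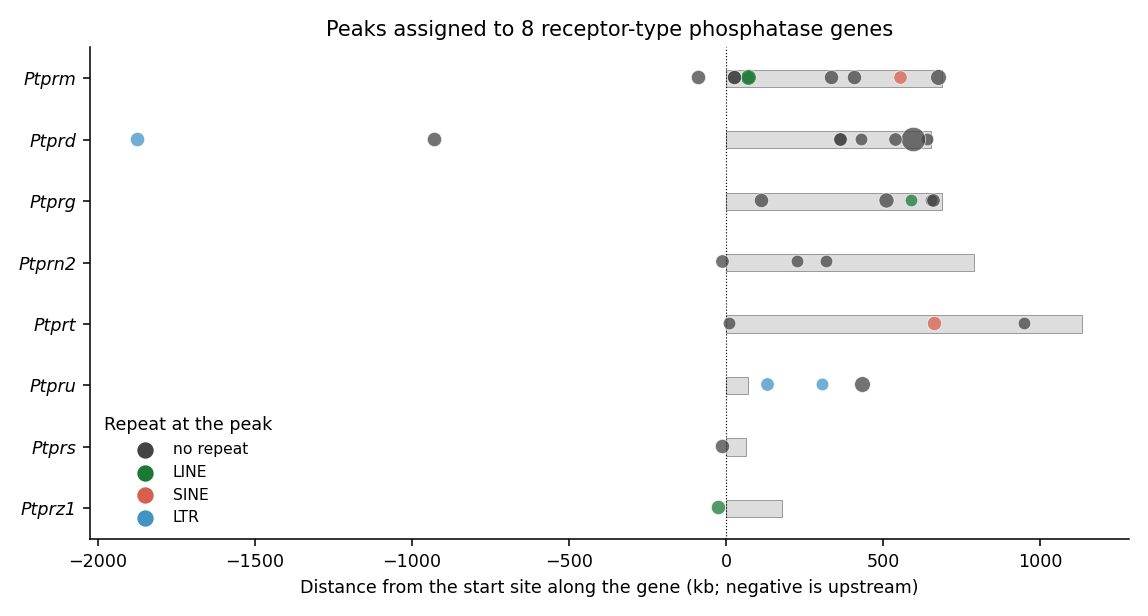
Position of the 33 peaks along 8 genes, in kb from the start site in the direction of transcription. Grey bars are gene bodies, circles are peaks with an area proportional to the Dnmt1-Dam height, and colors give the repeat class (the peak named for both a simple repeat and a SINE is drawn as SINE). Most peaks of Ptprm, Ptprd and Ptprn2 and all peaks of Ptprg and Ptprt fall inside long bodies, while those of Ptpru, Ptprs and Ptprz1 are all outside.

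None of the 33 peaks was in a promoter class, which the table assigns within 10 kb upstream to 1 kb downstream of a start site. A count of 0 of 33 allows a share of up to 9.09%, and 6.73% of all listed peaks (6.20 to 7.30) were in a promoter class, so a lower share is not detectable at this number. Dam can mark DNA only at GATC, so the promoter windows are shown with that sequence in capitals. The windows are from RefSeq (GRCm38.p6, another build than the mm9 of the peaks), run from 250 bases before to 50 after the start site, and are read 5′ to 3′ on the gene's strand. They were chosen for the genes with peaks inside the body. Ptprd has no entry in the window table, and of the 2 windows of Ptprg the upstream one is shown. In order, they lie at chr17:67354410-67354709 (minus strand), chr14:11553303-11553602 (plus), chr2:162661098-162661397 (minus) and chr12:116485470-116485769 (plus).
Ptprm: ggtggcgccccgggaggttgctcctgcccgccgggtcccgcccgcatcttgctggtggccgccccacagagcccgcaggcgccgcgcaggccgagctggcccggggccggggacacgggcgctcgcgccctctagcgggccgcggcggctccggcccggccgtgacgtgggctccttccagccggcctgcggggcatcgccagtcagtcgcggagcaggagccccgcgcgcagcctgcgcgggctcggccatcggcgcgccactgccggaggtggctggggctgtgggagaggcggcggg
Ptprg: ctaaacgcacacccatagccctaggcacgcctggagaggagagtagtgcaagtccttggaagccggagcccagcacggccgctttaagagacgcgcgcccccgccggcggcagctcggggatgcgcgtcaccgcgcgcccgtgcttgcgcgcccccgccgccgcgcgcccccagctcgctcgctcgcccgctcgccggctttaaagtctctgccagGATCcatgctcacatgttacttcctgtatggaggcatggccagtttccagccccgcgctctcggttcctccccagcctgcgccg
Ptprt: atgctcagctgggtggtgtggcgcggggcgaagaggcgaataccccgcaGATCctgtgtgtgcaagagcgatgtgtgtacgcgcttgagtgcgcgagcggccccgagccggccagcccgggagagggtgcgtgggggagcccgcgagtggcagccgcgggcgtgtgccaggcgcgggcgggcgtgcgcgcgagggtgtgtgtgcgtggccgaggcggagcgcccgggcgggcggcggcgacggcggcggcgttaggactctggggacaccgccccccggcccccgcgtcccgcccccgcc
Ptprn2: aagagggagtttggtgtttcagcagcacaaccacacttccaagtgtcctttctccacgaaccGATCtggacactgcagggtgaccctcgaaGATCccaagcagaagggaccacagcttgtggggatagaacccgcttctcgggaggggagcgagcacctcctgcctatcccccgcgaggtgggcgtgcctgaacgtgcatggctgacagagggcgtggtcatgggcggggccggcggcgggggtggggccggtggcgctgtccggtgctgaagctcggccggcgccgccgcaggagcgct

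The Ptprm window, of the gene with the most peaks, holds no GATC. The Ptprg window holds 1, beginning at base -34 from the start site, and the Ptprt window holds 1, at -201. The Ptprn2 window holds 2, at -188 and -159. Across 9 of the genes, 6 of 11 windows contain a GATC, and 48.0% of all 32851 RefSeq windows of the same length do. GATC reads the same on both strands and was the only sequence searched. The 4 printed windows are rich in CpG, the dinucleotide that Dnmt1 methylates: they hold 43 (Ptprm), 36 (Ptprg), 46 (Ptprt) and 24 (Ptprn2) CpGs, where the median of all windows is 7. The other Ptprg window, which is not printed, holds 7 CpGs and no GATC. A match describes these letters only, and a window without GATC says nothing of the wider promoter.

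Among the type IIb receptors, Ptprm held the most peaks. Ptprm (chromosome 17, 67016883 to 67703727 in mm9, minus strand) encodes the receptor PTPmu, which binds itself between cells. It had 9 peaks, of which 8 lay in its body of 687 kb. The body peaks had Dnmt1-Dam heights of 9, 9, 11, 8, 9, 9, 8 and 11 in order from the start site, against Dam-only heights of 1, 1, 1, 2, 2, 1, 2 and 1. The heights thus stayed within a narrow range near the floor of the table, where the smallest Dnmt1-Dam height is 7 and the smallest Dam-only height is 1. The ninth peak of Ptprm lay 87.6 kb upstream of its start site and had a height of 9 against 1.

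The peaks of Ptprm covered the whole length of the gene, from 3.69% to 98.4% of the way from start to end. They included close pairs. The peaks at 67678251 and 67678361 are 110 bp apart and each had 9 against 1. Those at 67634561 (8 against 2) and 67634651 (11 against 1) are 90 bp apart and both carry a LINE. Grouping peaks that lie within 1 kb of their neighbor into runs leaves 6 runs in the body. The longest stretch of the body between neighboring peaks was 265 kb.

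Ptprt, another self-binding type IIb receptor, is longer and had fewer peaks. Its body (chromosome 2, 161353359 to 162486883, minus strand) is 1134 kb long and held 3 peaks, with none outside. The peak at 162478431, 8.45 kb downstream of the start site, had 7 against 1. The peak at 161822881, in a SINE, had 9 against 1, and the one at 161536371 had 7 against 1. The first and the next of these peaks were separated by 656 kb of body without a listed peak.

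Ptpru (chromosome 4, 131324372 to 131394193, minus strand) had 3 peaks, all downstream of its body of 69.8 kb. They lay 59.2 kb, 236 kb and 365 kb beyond its end. The nearest had a height of 8 against 1 and the middle one 7 against 1, both in LTR elements. The farthest, at 130959641 with no repeat, had 11 against 1. A body of this length with no peak allows a density of up to 43.0 per Mb (the floor of 3 counts), so its body could not be told apart from the long ones. Ptprk, the remaining type IIb gene, had no listed peak, and as the table gives no length for such a gene it has no density here.

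Of the type IIa genes, Ptprd had the highest peak of the family. Ptprd encodes a presynaptic receptor that organizes synapses. The transcript that the table uses for it (chromosome 4, 75587143 to 76240203, minus strand) spans 653 kb. It held 6 body peaks, with Dnmt1-Dam heights of 8, 9, 7, 8, 26 and 7 in order from the start site and a Dam-only height of 1 at each of them. The peak of 26 against 1, at position 75643001, lay 597 kb into the gene and had no repeat and no CpG island context. Of all 8226 peaks 54 were higher, and of the 3537 body peaks 18 were. The other 32 peaks of the family reached at most 11.

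The body peaks of Ptprd were all in its distal part. The nearest to the start site lay 364 kb into the gene, at 55.7% of its length, and the farthest at 97.9%. The peaks at 75876311 (9 against 1) and 75876421 (8 against 1) are 110 bp apart, so the body holds 5 runs. A peak 0.930 Mb upstream of the start site had 9 against 3, and one 1.87 Mb upstream, in an LTR element, had 9 against 1. Both peaks are outside the body of the transcript used in the table. Longer Ptprd transcripts are known that begin farther upstream, and whether they reach either peak was not examined.

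The other type IIa genes had 1 peak between them. Ptprs (chromosome 17, 56551849 to 56615903, minus strand), a receptor for proteoglycans on growing axons, has a body of 64.1 kb with no peak. Its peak lay 12.7 kb upstream of the start site, in the shore of a CpG island, with a height of 9 against 3. It was the sole peak of the family with an island, shore or shelf context (1 of 33, 3.03%), which 6.61% of all peaks had. Ptprf, which encodes LAR, had no listed peak.

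In type V, Ptprg had its peaks inside the gene and Ptprz1 outside. Ptprg (chromosome 14, 12386067 to 13074553, plus strand) encodes a receptor for contactins, and its body of 688 kb held 5 peaks with none outside. Their heights were 9, 10, 7, 7 and 8 in order from the start site, against 1, 1, 1, 1 and 2. The first lay at 16.2% of the body and the other 4 between 73.9% and 95.6%, with a gap of 397 kb between the first and the next. The peak at 12974961 (7 against 1) carried a LINE, and the others no repeat. Ptprz1 (chromosome 6, 22825502 to 23002916, plus strand), a receptor for pleiotrophin on glial cells and their precursors, had 1 peak. It lay 24.1 kb upstream of the start site, in a LINE, with 9 against 1. The body of 177 kb held no peak, which allows up to 16.9 per Mb.

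Ptprn2 (chromosome 12, 117724306 to 118515266, plus strand), the type VIII gene, had 3 peaks in and near its body of 791 kb. The body peaks, 227 and 318 kb from the start site, had 7 against 1 each. The third lay 12.2 kb upstream, with 8 against 2. None carried a repeat, and all were at or next to the lowest height in the table.

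**Figure D2:**
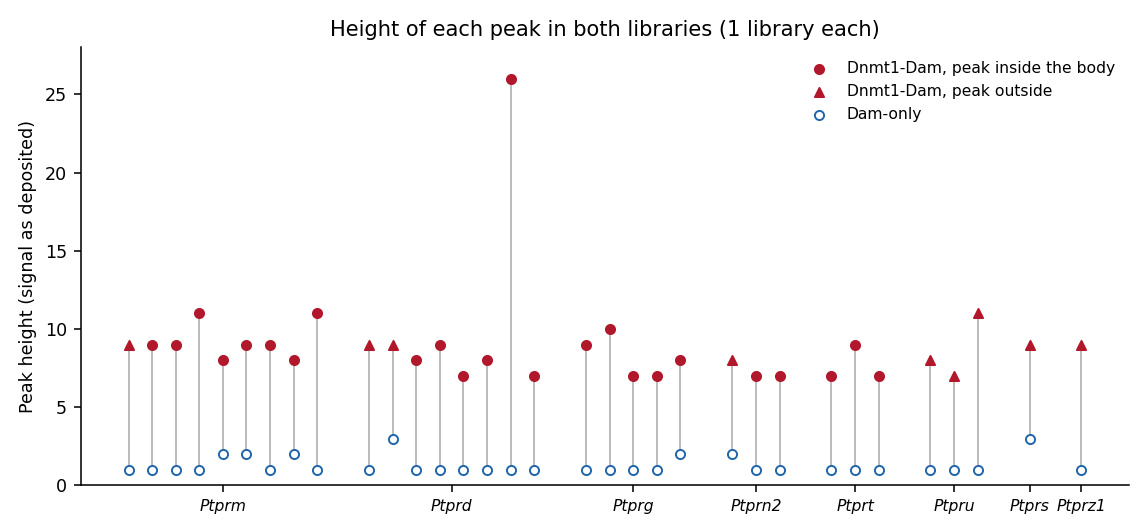
Height of each of the 33 peaks in the Dnmt1-Dam library (red; circles inside the body, triangles outside) and in the Dam-only library (open blue circles), in the deposited signal unit, ordered by distance from the start site within each gene. Apart from the peak of 26 in Ptprd, Dnmt1-Dam heights lie between 7 and 11 and Dam-only heights between 1 and 3.

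Over the 33 peaks, the heights lay in the middle and lower part of the listed range. The median Dnmt1-Dam height was 9 (interquartile range 7 to 9), and that of all peaks was 9 (7 to 11). At 12 or more stood 1 of the 33 peaks (3.03%), beside 20.1% of all peaks. At 7, the lowest listed height, stood 9 of the 33 (27.3%), beside 26.8% of all. The Dam-only height was 1 at 26 peaks (78.8%, 61.1 to 91.0), 2 at 5 and 3 at 2, while 75.8% of all peaks (74.9 to 76.8) were at 1. The log2 ratio of the heights, after scaling Dam-only to the Dnmt1-Dam sum over all listed peaks and adding 1, had a median of 0.21 (interquartile range 0.05 to 0.37). The median over all peaks was 0.21 as well. It ran from -1.09 at the peak upstream of Ptprs and at the nearer of the upstream Ptprd peaks to 1.80 at the highest Ptprd peak. On this scale 0 is the ratio of the library sums, so a value below 0 still belongs to a peak with a higher Dnmt1-Dam height.

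The long bodies held between 2.53 and 11.6 peaks per Mb. Ptprm held 11.6 peaks per Mb of body (exact Poisson 95% interval 5.03 to 23.0), Ptprd 9.19 (3.37 to 20.0) and Ptprg 7.26 (2.36 to 16.9). Ptprt held 2.65 (0.546 to 7.73) and Ptprn2 2.53 (0.306 to 9.13). The autosomal mean was 3.25 per Mb, and the intervals of Ptprm and Ptprd lay above it, while those of the others contained it. As the genes were chosen with their peaks known and the intervals cover counting error only, this is a description and no test against the mean. With 1 peak per run, Ptprm had 8.74 per Mb (3.21 to 19.0) and Ptprd 7.66 (2.49 to 17.9). Both intervals contain 3.25, but that mean counts each peak. A mean over runs was not computed and would be lower, so the run densities are not placed against it. The Ptprd value also rests on the transcript in the table. A body reaching to its farthest upstream peak would hold 8 peaks, or 3.17 per Mb (1.37 to 6.24). The intervals of all 5 genes overlap, so the order of neighbors is not resolved. Pooled, Ptprm, Ptprd and Ptprg held 19 of the 24 body peaks, or 9.37 per Mb (5.64 to 14.6), and Ptprt and Ptprn2 held 5, or 2.60 per Mb (0.844 to 6.06). That grouping was made after their values were seen and has no test. Over the bodies of all 8 genes, 4.26 Mb held 5.63 peaks per Mb (3.61 to 8.37). With 1 peak per run the pooled value was 4.92 (3.05 to 7.53). That interval contains 3.25, but here too the mean counts each peak and not runs. A gene without a listed peak does not enter the pooled body density, which raises it.

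To give the outside peaks a length, all listed peaks within 500 kb on either side of each body were counted, whatever gene they were assigned to. These flanks held 40 peaks in 8 Mb, or 5 per Mb (3.57 to 6.81), and 7 of the 40 were assigned to the phosphatase gene itself (0.875 per Mb, 0.352 to 1.80). The pooled flank density and the pooled body density thus overlap within their intervals. In 3 genes the flank value was below the body value: 6 per Mb (2.20 to 13.1) for Ptprm, 2 (0.242 to 7.22) for Ptprd and 2 (0.242 to 7.22) for Ptprg. In the other 5 it was above: 8 (3.45 to 15.8) for Ptprn2, 7 (2.81 to 14.4) for Ptprt and for Ptprs, 5 (1.62 to 11.7) for Ptpru and 3 (0.619 to 8.77) for Ptprz1. The body and flank intervals overlap in each gene, so a difference between a body and its surroundings was not resolved for any gene at these counts.

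**Figure D3:**
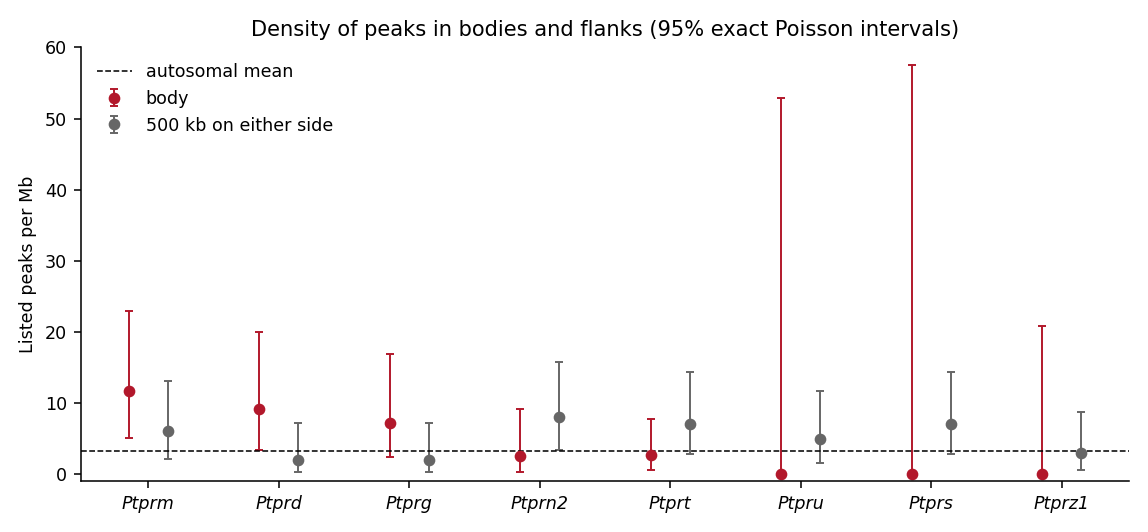
Listed peaks per Mb in the body (red) and in 500 kb on either side of it (grey) for each of the 8 genes with a peak, with exact Poisson 95% intervals that cover counting error only. The dashed line is the autosomal mean of 3.25 per Mb, and the wide intervals of Ptpru, Ptprs and Ptprz1 come with their short bodies.

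The highest flank peak was 15 against 2, in Epb4.1, a membrane skeleton gene beside Ptpru. Around Ptprs the highest was 12 against 1 in Jmjd2b, a histone demethylase gene, and around Ptprt it was 12 against 1 at L3mbtl, a Polycomb-related gene. The flanks of Ptprn2 reached 12 against 3 near Vipr2, with further peaks of 12 assigned to Rapgef5. The flanks of Ptprm reached 11 against 2 in Mtcl1 and in Lama1, those of Ptprz1 11 against 1 in Cadps2, those of Ptprg 9 against 1 in Cadps and those of Ptprd 9 against 2 near 3110001D03Rik. In the flanks of Ptprs, Ptprt, Ptpru, Ptprz1 and Ptprn2 the highest peak was thus higher than any peak of the phosphatase gene, in Ptprm it was equal to it, and in Ptprd and Ptprg it was lower.

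The table lists 154 genes with a body of 500 kb or more, and 5 are phosphatase genes. By peaks per Mb of body, Ptprm ranked 2 of 154, behind the transcription activator gene Camta1 at 12.5, Ptprd ranked 5 and Ptprg 15. Ptprt ranked 84 and Ptprn2 86. The rank of Ptprd holds for the transcript in the table, since a body reaching its upstream peaks would have a density near the autosomal mean. The median of the other 149 genes was 2.83 per Mb (interquartile range 1.73 to 4.30), so Ptprm, Ptprd and Ptprg lay above that range and Ptprt and Ptprn2 within it. With 1 peak per run, the ranks became 3 for Ptprm, 6 for Ptprd, 9 for Ptprg, 82 for Ptprt and 84 for Ptprn2. At 5 or more body peaks stood Ptprm, Ptprd and Ptprg, beside 0.195% of all genes of any length. Such counts are more common among long genes. By number of body peaks among the 154, genes with 5 (Ptprg among them) share rank 17 and genes with 4 share rank 29. Genes of this length without any listed peak are not in the table, and the phosphatase genes were chosen with their peaks known, so these ranks are descriptions.

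**Figure D4:**
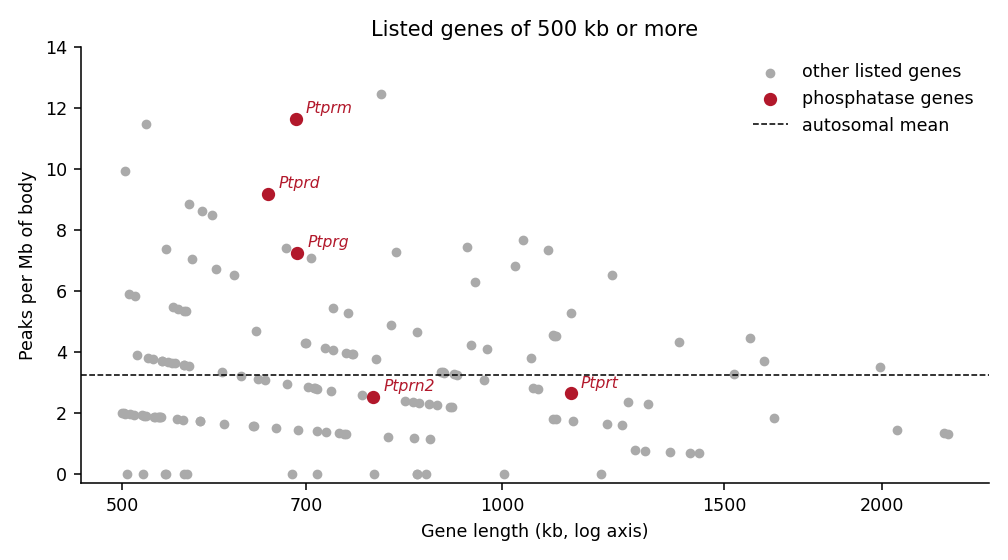
Peaks per Mb of body against gene length (log axis, kb) for the 154 listed genes of 500 kb or more, with the 5 phosphatase genes in red and the autosomal mean of 3.25 per Mb as a dashed line. Ptprm, Ptprd and Ptprg sit among the upper points, while Ptprt and Ptprn2 sit below the line.

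Most peaks of the family had no repeat named at their position. No repeat was named at 24 of 33 peaks (72.7%, 54.5 to 86.7), and at 60.5% of all peaks (59.4 to 61.5). Inside the bodies 19 of 24 had none (79.2%, 57.8 to 92.9), beside 66.6% of all body peaks (65.0 to 68.2). SINEs, short retroelements copied by LINE enzymes, were named at 2 of the 33 peaks (6.06%, 0.743 to 20.2) and at 17.1% of all. LINEs, the autonomous retroelements, were named at 4 (12.1%, 3.40 to 28.2) and at 8.18% of all. LTR elements, which derive from retroviruses, were named at 3 (9.09%, 1.92 to 24.3) and at 10.8% of all. Each of these intervals contains the share over all peaks, so a difference from the whole table was not resolved for any of these classes at 33 peaks.

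By place, LINEs were named at 12.5% of the body peaks (2.66 to 32.4) and 11.1% of the outside peaks (0.281 to 48.2). The 3 LTR peaks were all outside a body, at Ptpru and Ptprd, and 0 of the 24 body peaks carried an LTR element, which allows up to 12.5%, while 6.93% of all body peaks did. The 2 SINE peaks were inside Ptprt and Ptprm, the latter at 67150781 with a simple repeat beside the SINE and a height of 8 against 2. Outside, 0 of 9 peaks carried a SINE, which allows up to 33.3%. Of the 4 LINE peaks 3 were inside a body, a pair of which is the close pair of Ptprm, and 1 was upstream of Ptprz1. Close neighbors held 6 of the 33 peaks within 1 kb of another listed peak (18.2%, 6.98 to 35.5), beside 11.9% of all peaks.

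**Figure D5:**
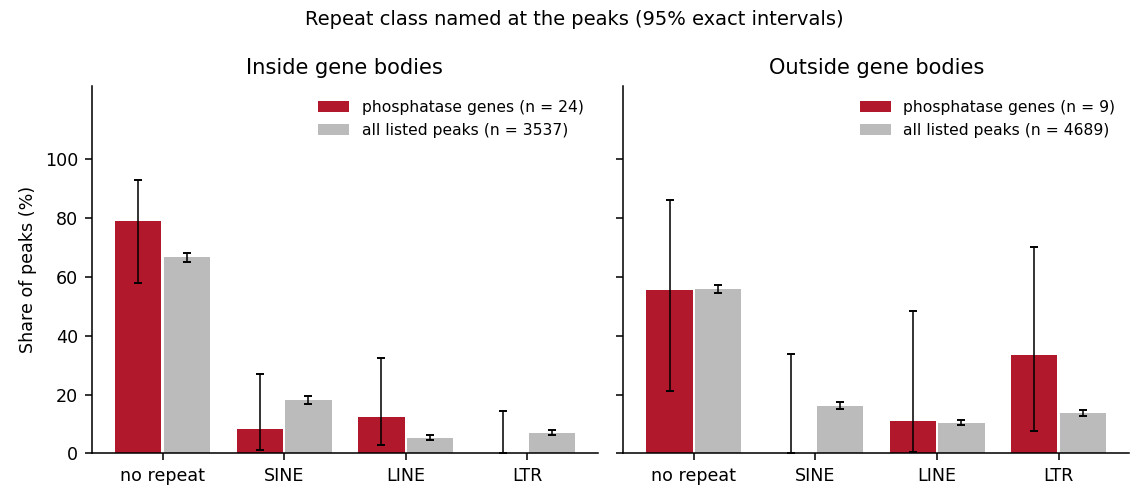
Share of peaks with no repeat or with a SINE, LINE or LTR element named, inside (left) and outside (right) gene bodies, for the phosphatase genes (red) and for all listed peaks (grey), with exact 95% intervals. The LTR bar of the phosphatase genes is at 0 of 24 inside and at 3 of 9 outside (33.3%, 7.49 to 70.1), and most red intervals are wide.

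The rest of the family and its known partners were read from lists drawn up by function, with 69 of 70 genes found in the gene table. Of these, 37 had an assigned peak and 22 had one inside the body, beside 22.7% and 11.7% of all genes. Among the other receptor-type phosphatases 6 of 11 had a peak, and 4 had one in the body. Ptprr, which acts on MAP kinases, led with 4 peaks, 3 of them in the body, and a top height of 13 against 1 in an LTR element. The leukocyte receptor gene Ptprc, known as CD45, had 3, all outside the body with a top height of 10 against 1, and Ptprj had 2 in the body with a top height of 14 against 1. Of the cytosolic phosphatases 8 of 15 had a peak, and 7 had one in the body. Ptpn3 led with 4 (top height 14 against 1), followed by Ptpn20 with 2 (13 against 2) and Ptpn13 with 2 (8 against 1).

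Partners of the type IIa receptors outside the cell had a peak in 8 of 13 genes, and 1 of the 13 (7.69%) had one in the body, beside 11.7% of all genes. That gene was Ntrk3, the neurotrophin receptor TrkC, with 7 peaks of which 4 were in the body, or 10.4 per Mb. Slitrk1 and Lrfn5, which encode synaptic adhesion proteins, had 4 each, all outside, and both reached 21 against 1. The partners inside the cell had a peak in 3 of 7 genes, each with one in the body. They were the exchange factor gene Trio with 3 peaks and the liprin genes Ppfia2 and Ppfia4 with 1 each.

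For type IIb, 3 of 5 cadherin and catenin genes had a peak. The N-cadherin gene Cdh2 had 6, all outside its body and reaching 20 against 1, the beta-catenin gene Ctnnb1 had 2 outside and the plakoglobin gene Jup had 1 inside. For type V, 5 of 11 ligand genes had a peak and 3 had one in the body. The matrix gene Tnc (tenascin C) had 4, reaching 28 against 2 outside its body. The contactin gene Cntn6 had 3, reaching 12 against 1, and Cntn1 had 2, reaching 11 against 1 outside its body. Of the dense-core vesicle genes 4 of 7 had a peak. Cadps had 3 (top height 9 against 1), Scg2 had 2, reaching 25 against 1 in a SINE outside the body, and Cadps2 had 1 in the body (11 against 1). These shares of members are to be set beside the 22.7% of all genes with a peak and the 11.7% with one in the body, and as gene length and the space around genes were not matched, nothing particular to the lists is read from them.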

How the data were processed

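The deposited table gives, for each peak, 1 position on mm9 and a height in the Dnmt1-Dam and in the Dam-only library. The heights are deposited as whole-number signal, and no source used here says whether they are raw or scaled. The submitters' processing notes name CASAVA, BWA and genome build mm9, and no source used here gives the peak caller, its thresholds or the number of reads. Libraries went through 15 PCR cycles and selection of fragments near 300 bp, per the labels' protocols. In each listed peak the Dnmt1-Dam height exceeds the Dam-only height by 6 or more, so the table holds selected positions. Depth is unknown, and the number of peaks limits the precision.

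Peaks were taken by the gene name in the table, and matching the 473 peaks without a name by accession added none. Gene bounds, location and repeat classes are the authors', and each of these genes has 1 transcript there. Densities have exact Poisson intervals and shares exact Clopper-Pearson intervals at 95%, and the floor for a count of 0 is 3 counts. The background is the 21035 RefSeq genes (GRCm38.p6) with a messenger RNA accession. Computations used Python 3.11.15, pandas 2.3.3 and scipy 1.17.1. The 10 genes and the partner lists were chosen with earlier results of these data known, and of each list the 3 genes with the most peaks are named. With 1 library per group no test was run. Alternatives were peak height minimums of 9 and 15, runs of 1 kb, peaks whose Dam-only height is 1, other flank widths, pseudocounts and scaling.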

Additional observations from a re-analysis of the deposited data

How the results depend on the processing

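Of 95 recalculated values, 69 stayed within 1.5 times the reported count, or within the reported interval or interquartile range, and 26 moved beyond it. With peaks of height 9 or more, body peaks fell from 24 to 11, the pooled body density from 5.63 to 2.58 per Mb and the flank density from 5 to 3.25 per Mb. With height 15 or more, 1 peak of 1 gene (Ptprd) was left, inside the body, with 0 outside and 0% in repeats. The pooled body density was then 0.235 and the flank density 0.125 per Mb, the median height 26 and the log2 ratio 1.80. Fewer peaks enter by construction, and the ratio rises because peaks are selected by height. Peaks at a Dam-only height of 1 gave a flank density of 3 per Mb, where fewer peaks also enter by construction. Flanks of 100 kb gave 8.75 per Mb, and the cause of that rise was not tested. Of the 9 outside peaks, 5 lay within 100 kb of the body and 0 within 10 kb. Unscaled, the median log2 ratio was 2.17. Counting body peaks alone, 22 of the 37 partner and family genes were left, and type IIa partners outside the cell fell from 8 to 1, type IIb partners from 3 to 1 and type V ligands from 5 to 3. Cytosolic phosphatases with a peak fell from 8 to 4 at height 9 or more. The body density of Ptprd went from 9.19 to 3.17 per Mb with a body reaching its farthest upstream peak. By 1 kb runs, the rank of Ptprg among long genes went from 15 to 9. Leaving out any 1 gene gave pooled body densities from 4.47 per Mb (without Ptprm) to 6.71 per Mb (without Ptprt). These lie within the interval of the full value, but that interval is wide (3.61 to 8.37). No interval was computed with a gene left out, so these values are not placed against the autosomal mean. The runs of 1 kb, the gene left out, the longer Ptprd body and the ranks among long genes were chosen after seeing the data for the densities they concern. No test of a difference was run, so none could change.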

Other observations

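Both type V genes have a peak in a gene of the Cadps family in their flanks. Ptprg and Ptprz1 are paralogs, and the calcium-dependent secretion genes Cadps and Cadps2, which are also paralogs, hold peaks in their flanks. In the flank of Ptprg, Cadps had body peaks of 7 against 1 (chromosome 14, 13393841) and 9 against 1 in a SINE (13415151). In the flank of Ptprz1, Cadps2 had a body peak of 11 against 1 (chromosome 6, 23276101). These peaks are counted both in the flank densities and among the dense-core vesicle genes, so the counts are not separate measurements. The pairing was not a planned result, rests on few peaks and was not tested, so nothing particular to type V is read from it.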
